A study of Drosophila mettleri with 18 samples.

Results

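In larvae of the cactus fly Drosophila mettleri, 48 of 15947 assembled transcripts met a rule for lower levels on cactus than on lab food. They were higher on lab food than on prickly pear and on saguaro in every strain examined, and also met the further limits given below. They were chosen by their measured levels in all 18 libraries. Counts were divided by a scaling factor per library, 8 was added and the log2 was taken (called L here). The 100 most abundant features were left out. A member had a higher L on lab food than on both cacti within each of the 6 strains, its mean L on the cacti differed by less than 0.8, and its mean on lab food exceeded that on the higher cactus by at least 0.8. Of the 216 features higher on lab food in all 6 strains, 210 were not among the most abundant, 154 of these met the limit on the gap between the cacti, and 48 also reached the minimum difference. The difference between lab food and the cacti is therefore how the transcripts were found, and its values below describe them without testing it.

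The larvae came from 2 populations, Santa Catalina Island and Sonoran. The island strains are C-M, C-7 and C-9, and T-22, T-27 and T-28 are the Sonoran ones. Each strain was reared on Drosophila 4-24 Instant food (lab food below), on coastal prickly pear cactus and on saguaro cactus, which gives 6 groups of 3 libraries. Every library held the RNA of 10 pooled larvae, 8 days old and by the design text in the last larval instar, so each strain has a single pool per food. No genetic change and no other treatment is listed for any group.

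Drosophila mettleri is a desert fly whose larvae typically feed in soil soaked with the juice of rotting cacti. Mainland flies use columnar cacti such as saguaro, and the island population uses prickly pear. Rotting cactus carries plant compounds, such as alkaloids, that larvae on lab medium do not meet. In insect larvae, genes of digestion, storage and detoxification are those best known to change with diet. Which of the 48 transcripts belong to such functions cannot be said here, because the table names features only by their place in a de novo assembly and pairs none of them with a gene name or a sequence.

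Library totals ran from 14088314 to 16115982 counts on lab food, from 10157101 to 14560231 on prickly pear and from 6769906 (T-27) to 15418605 on saguaro. Levels are given in CPM, the count scaled to a common library size after TMM normalization. Feature lengths are not in the table, so CPM of different features do not compare numbers of transcripts. Pools of whole larvae cannot tell fewer cells of a type from less RNA per cell.

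**Figure D1:**
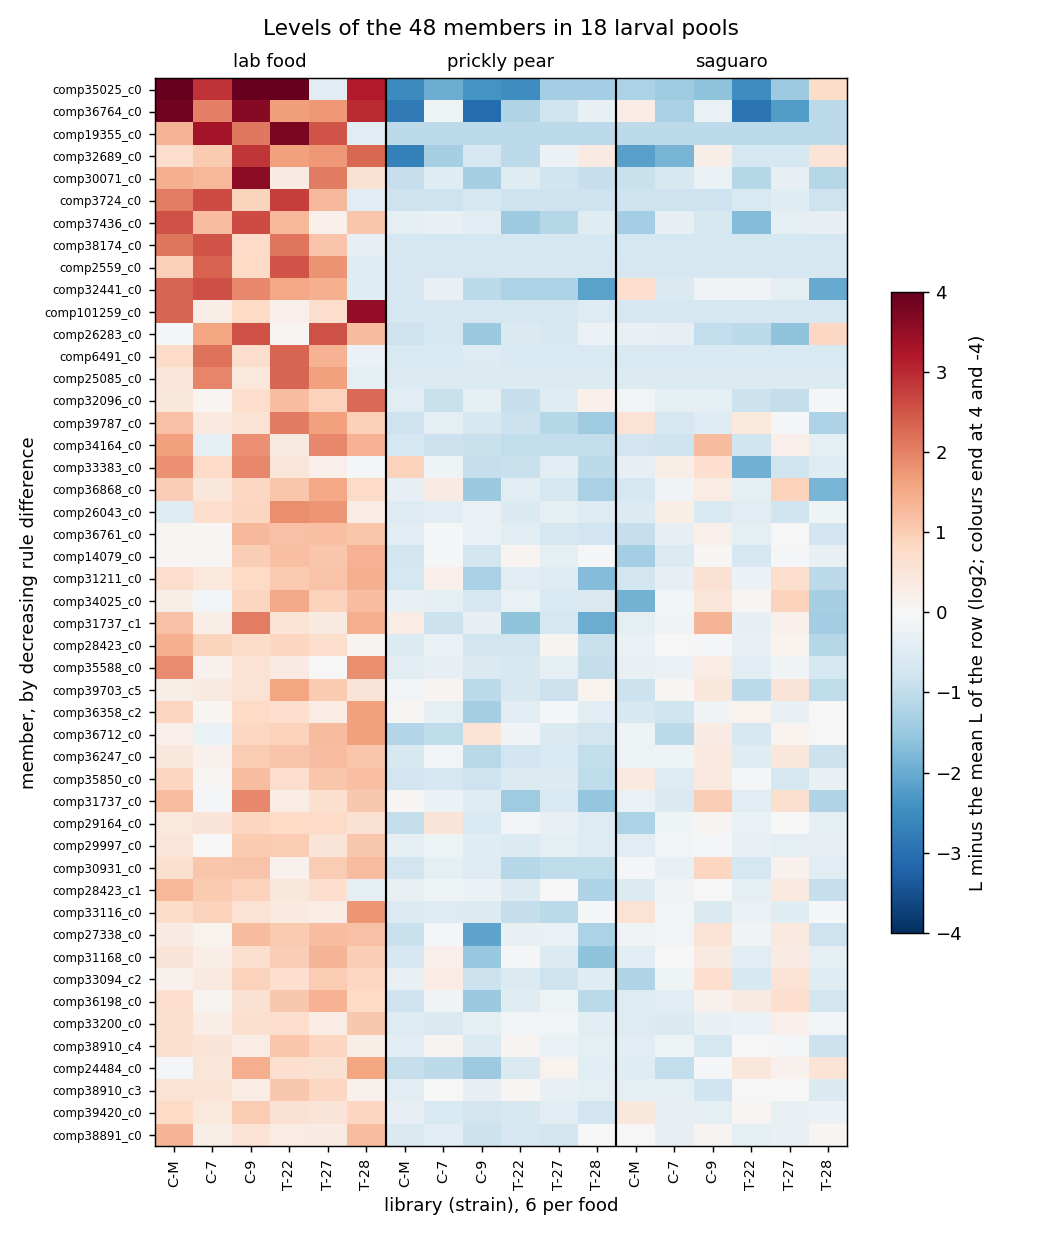
Each row is 1 of the 48 members, in order of the difference that ranked them, and each column is 1 library, with 6 strains per food. Colour gives L minus the row's mean in log2 units. The lab food columns are the reddest in each row within each strain, and the rows near the top, such as comp35025_c0, differ most.

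The members spanned a wide range of levels. Their mean on lab food ran from 1.07 to 2874 CPM with a median of 11 CPM, beside a median of 8.63 CPM over the 12514 features tested. On lab food 15 members lay below 5 CPM, 22 from 5 to 100 CPM and 11 at 100 CPM or more. All 48 passed the filter on low counts. The ranking difference ran from 0.80 to 4.52 in log2 units with a median of 1.09, and 8 members reached 2 or more. Just inside the limit lay comp38891_c0 at 0.803, and just outside lay comp38468_c1 at 0.794. The first had 160 to 347 CPM on lab food, 75 to 137 on prickly pear and 109 to 151 on saguaro. The second had 1.8 to 7.59, 0.371 to 1.73 and 0.536 to 5.61 CPM on the same foods.

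Together the members held 0.527% ± 0.119 of all counts on lab food, 0.191% ± 0.0446 on prickly pear and 0.166% ± 0.0522 on saguaro (SD, n = 6 each). In single libraries the share was 0.412% to 0.743% on lab food, against 0.129% to 0.265% on prickly pear and 0.0933% to 0.241% on saguaro. A single member, comp32689_c0, held 0.237% ± 0.113 of the counts on lab food (SD, n = 6). The other 47 held 0.289% ± 0.0589, 0.124% ± 0.00808 and 0.113% ± 0.0213 on the 3 foods in the same order. These shares use library totals and so do not depend on the scaling factors.

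Which cactus had the lower level depended on the scaling. Mean L was lower on prickly pear for 37 members, higher for 7 and equal for 4, within the gap of 0.8 that the rule allowed. In the model of all features, the median log2 fold change was -1.69 on prickly pear and -1.26 on saguaro, beside medians of 0.08 and 0.04 over all 12514 features. By the fold changes of that model, 38 members were lower on prickly pear and 6 on saguaro. With library totals alone in the model the order turned: the medians were -1.04 and -1.23, beside 0.72 and 0.06 over all features. By those fold changes 28 members were lower on saguaro and 16 on prickly pear. The shares of counts above, which use totals, also ran lower on saguaro. All 48 were called lower on prickly pear (edgeR quasi-likelihood test, adjusted p below 0.05), where 18.9% of all features were so called. On saguaro 14 of the 48 were called lower, against 0.2% of all features. Those 14 are 29.2% of the members and 56% of the 25 features called lower on saguaro. The 14 became 34 with DESeq2, which called 111 of all features lower. The number was 0 without C-M, 4 without C-7, 6 without C-9, 0 without T-22, 2 without T-27 and 8 without T-28. Over all features 2, 6, 18, 1, 4 and 16 were then called lower, in the same order. With strain as a replicate block 14 were called, of which 10 were the same members, among 23 of all features. The rule used both contrasts, which share the lab food libraries, so nothing is read from these counts.

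The rule compared foods within a strain. Across strains, the lowest of the 6 lab food libraries lay above the highest of the 12 cactus libraries for 16 members, or 33.3% of them, and for 0.232% of all features tested. In the others, at least 1 cactus library of one strain reached a lab food library of another. Over the 6 strains the SD of L on lab food had a median of 0.62 for the members and 0.31 for all features tested. On prickly pear these medians were 0.36 and 0.27, and on saguaro 0.47 and 0.38.

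A group of 7 members was found almost only on lab food. They were set apart after their values were seen, as features with at least 30 counts over the 6 lab food libraries and at most 3 over the 12 cactus libraries. Of the 7, 4 had 0 counts on both cacti. comp19355_c0 had 38 counts in C-M, 195 in C-7, 59 in C-9, 231 in T-22, 77 in T-27 and 4 in T-28 on lab food, and 0 in all 12 cactus libraries. It was at least 424-fold higher on lab food than on the cacti, against a floor of 3 counts over the 12 cactus libraries. Of the others, 3 with 0 counts on the cacti were at least 99-fold, 141-fold and 155-fold higher on lab food against the same floor. A single lab food library held between 1 and 231 counts of any of the 7.

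Among these 7, 6 members had nearly the same profile over the strains. In CPM, C-7 and T-22 were the 2 highest lab food libraries for 6 of the 6, and T-28 was the lowest for 6 of the 6. By count, comp38174_c0 had 54 in C-M and 52 in T-22, so the order of those strains turned. The 6 had 45 to 195 counts each in C-7, 52 to 231 in T-22, 18 to 77 in T-27, 9 to 54 in C-M, 7 to 59 in C-9 and 1 to 4 in T-28. Their summed level was 34.9 CPM in C-7 and 41.7 CPM in T-22, and 1.08 CPM in T-28, with C-M at 13.4, C-9 at 10.2 and T-27 at 17.7 CPM. High and low strains occurred in both populations. Over the 6 lab food libraries their CPM had correlations of 0.64 to 0.99 with each other (median of 15 pairs 0.92), values that rest on the same 6 libraries. The 6 were grouped by this profile, so the correlations describe the group and do not test it.

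The seventh, comp101259_c0, had the opposite order. It had 121 counts in T-28 and 60 in C-M on lab food, and 7 to 13 in each of C-7, C-9, T-22 and T-27, with 1 count in the 12 cactus libraries (in T-28 on prickly pear). Its level on lab food was 466 times that on the cacti, with an exact 95% interval of 82.7 to 18478 for counting error. Its correlation with the other 6 over the lab food libraries was -0.73 to -0.56. It was named, and set apart from the other 6, after its values were seen.

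Another 8 features in the table were likewise found almost only on lab food but fell outside the rule. Of these, 7 had 0 counts in T-28 on lab food and so could not be higher there than on the cacti. C-7 or T-22 was the highest library for 8 of the 8, and their correlations with the 6 members ran from 0.33 to 0.96 (median 0.83). In the other direction, 20 features had at least 30 counts on the cacti and at most 3 on lab food. With a minimum of 100 counts the numbers were 9 on lab food and 1 on the cacti, so which food had more such features depended on the minimum. The limit of 3 counts covers 6 libraries on lab food and 12 on the cacti, so the directions are not compared like for like. A de novo assembly of whole larvae can hold transcripts of anything in or on them. The organism these lab food features come from was not tested.

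**Figure D2:**
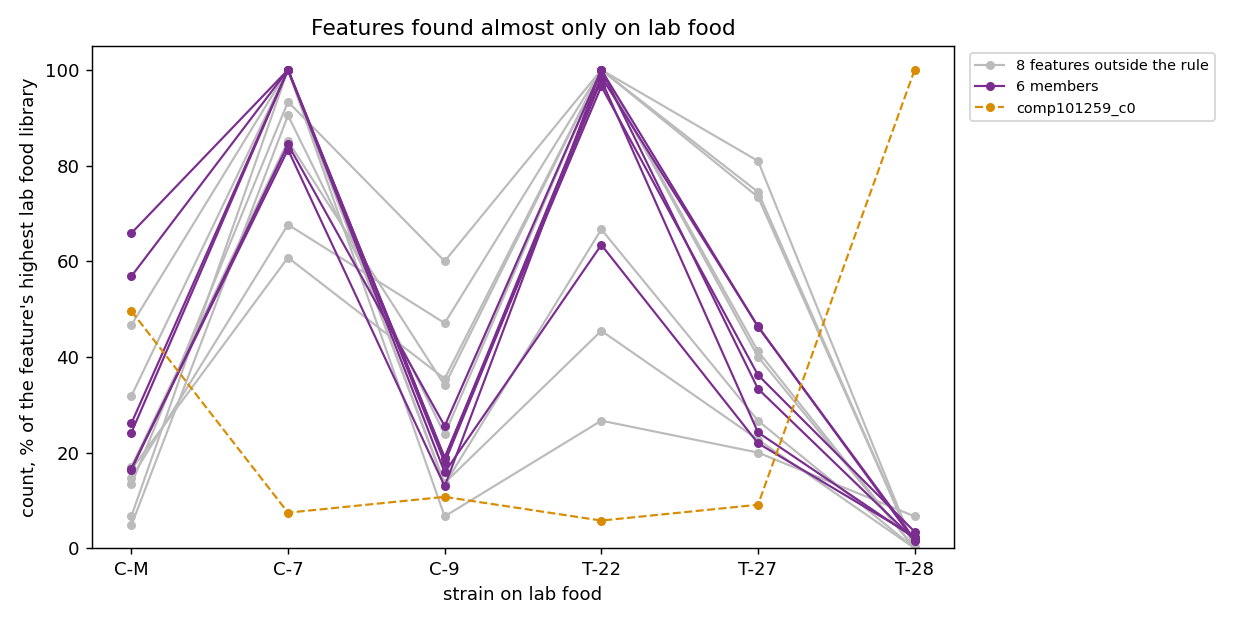
The count of each feature found almost only on lab food is drawn as a percentage of its highest lab food library, for the 6 strains. The 6 members (purple) are highest in C-7 or T-22 and near 0 in T-28, the 8 features outside the rule (grey) mostly do the same, and comp101259_c0 (dashed) peaks in T-28.

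The other 41 members were still present on cactus. Of these, 36 had at least 1 count in every library. Their median level was 3.04-fold lower on prickly pear, from 1.83-fold upwards, and 2.20-fold lower on saguaro, from 1.73-fold to 28.7-fold.

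comp35025_c0 had the largest ranking difference, 4.52 in L. On lab food it stood at 1134 CPM in C-M, 225 in C-7, 729 in C-9, 579 in T-22, 22.5 in T-27 and 280 in T-28. On prickly pear it lay between 4.44 CPM (C-M) and 11.8 CPM (T-27), and on saguaro between 5.03 CPM (T-22) and 52.8 CPM (T-28). T-27 was far below the other strains on lab food, where its 22.5 CPM compare with 11.8 and 10.6 CPM in its own cactus pools. The T-28 saguaro pool lay above the T-27 lab food pool. In the fit it was 63-fold lower on prickly pear and 28.7-fold lower on saguaro.

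comp36764_c0 came next, with a ranking difference of 3.90. It had 180, 50.2 and 158 CPM on lab food in C-M, C-7 and C-9 and 40, 41.4 and 101 CPM in T-22, T-27 and T-28. The cactus libraries lay between 0.881 and 9.88 CPM on prickly pear and between 1.04 and 14.3 CPM on saguaro, so lab food and cactus did not overlap. C-M and C-9, the highest strains on lab food, were the lowest on prickly pear and the highest on saguaro.

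comp32689_c0 had the highest level of all members, 2874 ± 1612 CPM on lab food, against 489 ± 305 on prickly pear and 574 ± 400 on saguaro (SD, n = 6 each). By strain it had 1232, 1597 and 5605 CPM on lab food in C-M, C-7 and C-9 and 2416, 2569 and 3825 CPM in T-22, T-27 and T-28. On prickly pear the same strains had 113, 295, 488, 380, 680 and 978 CPM, and on saguaro 164, 218, 914, 484, 477 and 1185 CPM. C-M was the lowest and C-9 or T-28 the highest on each food. Its L over the 6 strains had a correlation of 0.94 between lab food and saguaro and 0.76 between lab food and prickly pear.

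comp36247_c0, the member with the next highest level, showed a smaller difference. It had 662, 549 and 996 CPM on lab food in C-M, C-7 and C-9 and 1101, 1167 and 1075 CPM in T-22, T-27 and T-28. Prickly pear libraries lay between 229 and 440 CPM and saguaro libraries between 280 and 671 CPM. It was 2.93-fold lower on prickly pear and 1.93-fold lower on saguaro, and lab food overlapped with saguaro but not with prickly pear. In C-7 the lab food pool (549 CPM) stood close to both cactus pools (440 and 443 CPM).

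**Figure D3:**
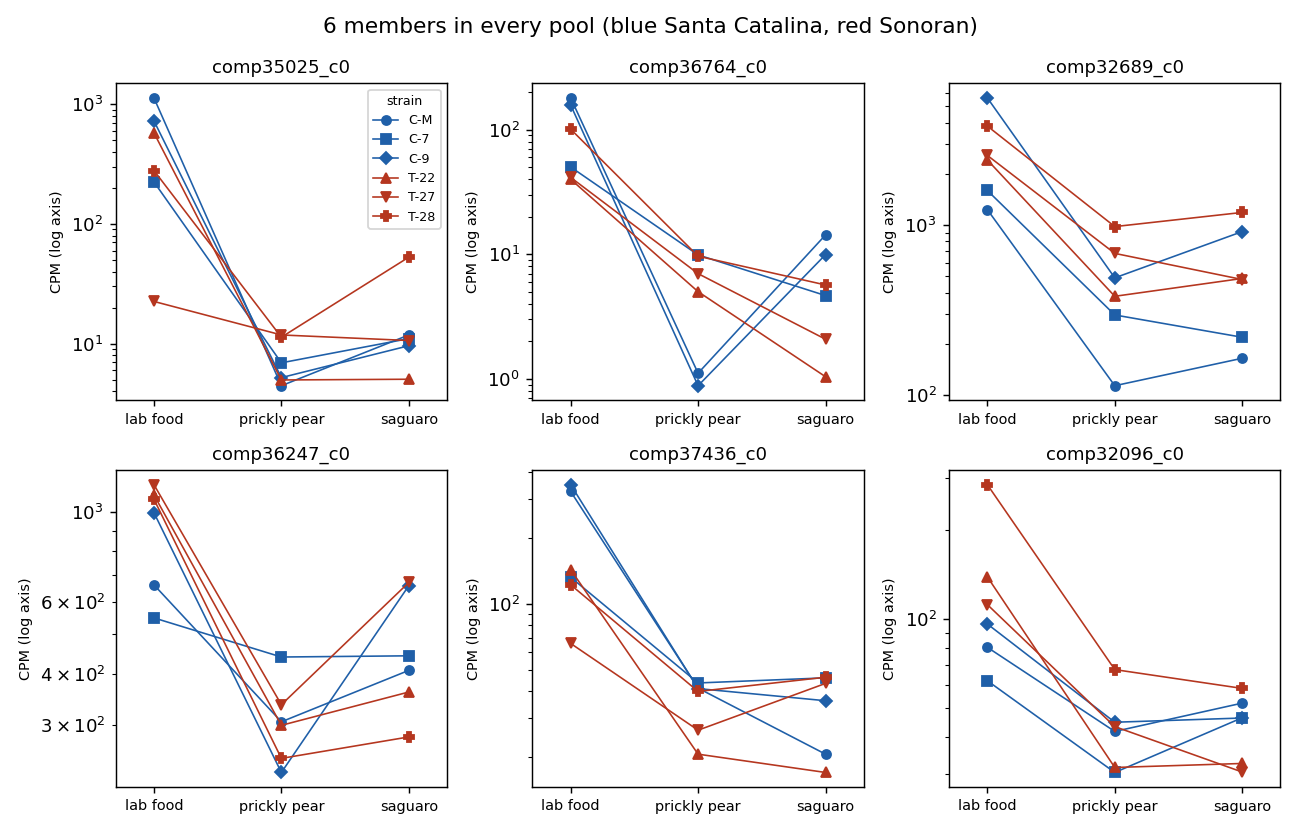
CPM on a log axis for 6 members on the 3 foods, with 1 line per strain, Santa Catalina in blue and Sonoran in red. Each line drops from lab food to both cacti; T-27 on lab food lies at 22.5 CPM for comp35025_c0, and T-28 stands apart at 285 CPM for comp32096_c0.

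The 48 members lay in 45 assembly components, and 38 were the only feature of theirs. A component can hold copies or versions of a gene, between which reads may be divided. Both members of comp38910 kept a nearly fixed ratio: comp38910_c3 had 0.258 to 0.348 times the counts of comp38910_c4 in the 18 libraries, and pooled by food the ratio was 0.290 on lab food and 0.289 on each cactus. In comp28423 the ratio of c0 to c1 ran from 0.821 to 1.81, and in comp31737 that of c0 to c1 from 0 to 1, where counts were low. These 3 pairs may thus stand for fewer genes than 6. The components of the members held 13 further features, of which 12 were tested, with 5 called lower and 3 called higher on prickly pear. The 5 are 41.7% of the 12, beside 18.9% of all features called lower. The median log2 fold change of the 12 was -0.38 on prickly pear and -0.35 on saguaro.

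Strains differed in how far the members fell. The median difference in L between lab food and prickly pear was 1.35 in C-M, 0.88 in C-7, 1.68 in C-9, 1.52 in T-22, 1.62 in T-27 and 1.73 in T-28. For saguaro these medians were 1.38, 0.77, 0.97, 1.39, 0.90 and 1.53 in the same order. Over all features tested the medians in single strains lay between -0.11 and 0.12. C-7 had the smallest median on both cacti. It was the strain with the smallest difference for 14 members, and T-28 was the strain with the largest for 21.

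**Figure D4:**
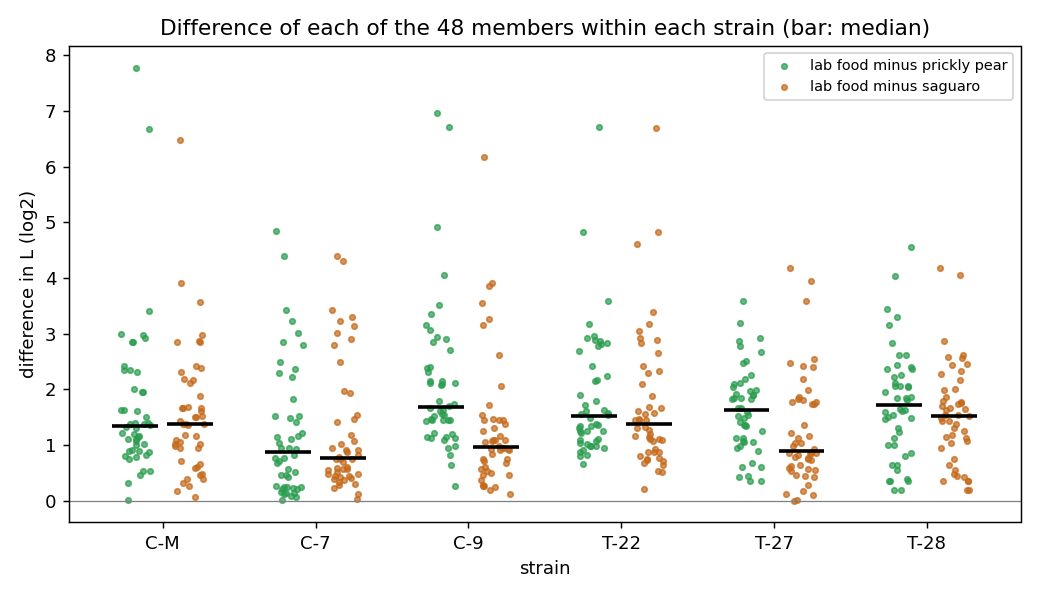
The difference in L between lab food and each cactus is shown for every member within every strain (48 points per column), with a bar at the median. All points lie above 0, as the rule requires, and C-7 has the lowest medians, 0.88 for prickly pear and 0.77 for saguaro.

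A strain that took no part in the choice gives a look at the same difference that the rule did not fix. The rule was applied to 5 strains at a time, keeping at most 100 features, and L was then read in the sixth. Of 52 features chosen without T-22, 46 (88.5%) were higher on lab food than on both cacti in T-22, against 31% of all features outside the 100 most abundant. The corresponding shares were 85.7% in T-27 (54 of 63) against 28.9% and 80% in T-28 (40 of 50) against 33.9%. For Santa Catalina strains they were 71.2% in C-M (52 of 73) against 28.4%, 65.9% in C-9 (56 of 85) against 19.6%, and 44% in C-7 (44 of 100) against 29.6%.

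In the strain left out, the median of lab food minus the higher cactus was 0.95 in T-22, 0.62 in T-27, 0.65 in T-28, 0.48 in C-M and 0.38 in C-9, and it was -0.09 in C-7. Over all features these medians lay between -0.25 and -0.12. Without C-7, 110 features met the rule, of which 39 of the 100 kept were members. Choosing on one population and reading the other gave shares of 78.8%, 80.3% and 80.3% in T-22, T-27 and T-28 (66 features chosen on Santa Catalina). In the opposite direction they were 81% in C-M, 51% in C-7 and 63% in C-9 (100 features chosen on Sonoran). Features chosen together share each library, so these shares carry no test.

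**Figure D5:**
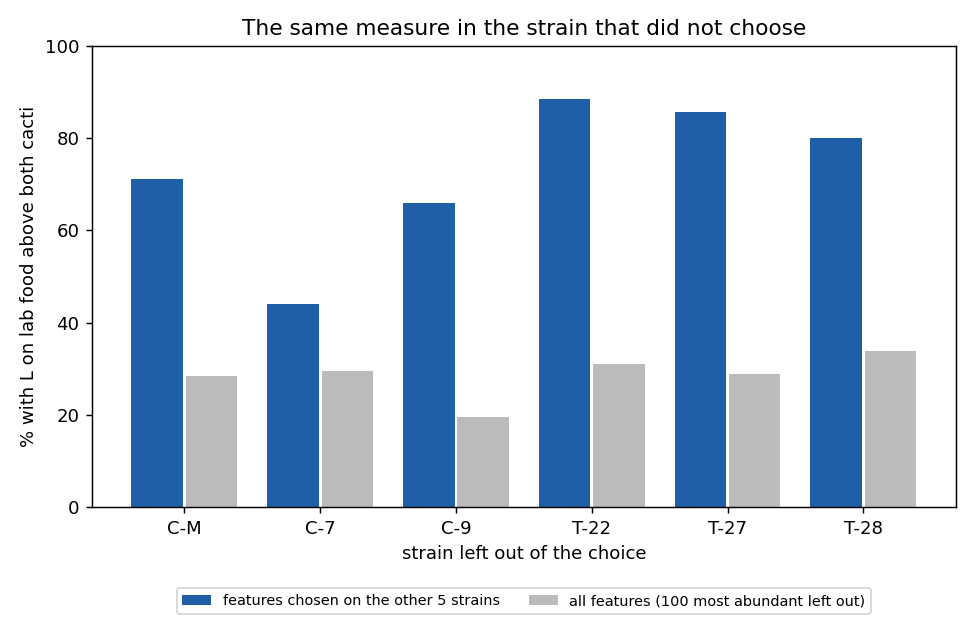
For each strain, the blue bar is the percentage of features chosen on the other 5 strains whose L was higher on lab food than on both cacti, and the grey bar is that percentage over all features other than the 100 most abundant. The blue bar is the taller in each strain, from 44% against 29.6% in C-7 to 88.5% against 31% in T-22.

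The rule made no comparison of populations, but it required lab food above both cacti in every strain. It thus left out features raised on lab food in a single population alone. Large differences between populations on lab food were therefore less likely among the members. Nothing is read from the members' shares below beside those of all features. No member was called between Santa Catalina and Sonoran over the 3 foods, with counts summed per strain (edgeR quasi-likelihood test, 3 strains against 3), where 0.0914% of 13129 features were called. At an unadjusted p under 0.05 stood 6 members, or 12.5% of them, and 11.9% of all features. On single foods the members called were also 0, against 0.128% of features on lab food, 0.04% on prickly pear and 0.136% on saguaro. Unadjusted p was under 0.05 for 5 members on lab food (10.4%, against 17.6% of all features), 1 on prickly pear (2.08% against 3.16%) and 2 on saguaro (4.17% against 5.95%). The members include the 7 found almost only on lab food. Each had at most 3 counts over the 12 cactus libraries, too few to be called there. DESeq2 called 2 members over the 3 foods, or 4.17% of them, against 1.69% of all features. Summed counts give more weight to the food with more counts, which for the members was lab food. With the foods weighted equally, DESeq2 called 1 member, or 2.08% of them, against 1.48% of all features. On single foods it called 0 members, against 4.02% of all features on lab food, 0.242% on prickly pear and 0.47% on saguaro.

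Both DESeq2 calls on summed counts were higher in Santa Catalina. comp33383_c0 had 42.5, 19.8 and 45.9 CPM on lab food in C-M, C-7 and C-9 against 16.8, 13.4 and 11.3 CPM in T-22, T-27 and T-28, so the populations did not overlap there. On saguaro the island strains had 8.69, 14.5 and 19 CPM against 2.65, 6.41 and 8.37 CPM, again without overlap, and on prickly pear they overlapped (5.79 to 21.6 against 5.27 to 8.87 CPM). Its log2 fold change over the 3 foods was 1.2 (SE 0.22, adjusted p = 0.167, edgeR), and DESeq2 gave an adjusted p of 0.000412, the smallest of 11 other settings, whose largest was 0.516. The other was comp37436_c0 (log2 fold change 1.00, SE 0.28, adjusted p = 0.0255 by DESeq2), which edgeR did not call (adjusted p = 0.301). By food, its log2 fold change in edgeR was 1.28 on lab food, 0.53 on prickly pear and -0.05 on saguaro.

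In the other direction comp14079_c0 had the smallest p. It stood at 57.1, 58.8 and 113 CPM on lab food in C-M, C-7 and C-9 and at 132, 125 and 151 CPM in T-22, T-27 and T-28, without overlap. Its cactus levels were 21 to 59 CPM in the island strains and 36 to 63.1 CPM in the Sonoran strains. The log2 fold change over the 3 foods was -0.62 (SE 0.16, adjusted p = 0.301, edgeR; 0.0514 to 0.65 in 11 other settings). Over the members, 17 were above 0 and 31 below in Santa Catalina minus Sonoran on lab food, with a median of -0.29 beside 0.02 over all features. On the cacti the median was 0.01 on prickly pear and 0.01 on saguaro. There 24 members were above 0 and 20 below on prickly pear, and 25 above and 17 below on saguaro. The rest had no counts on that cactus and stood at 0, which draws these medians towards 0. With library totals alone 22 members were above 0 on lab food, and the median moved to -0.03 while that of all features moved to 0.27. The members' median on prickly pear then was 0.00, as over all features, and on saguaro -0.09 beside -0.33 over all features. Without C-9, calls over all features rose from 16 to 854 (6.78%), and 3 members (6.25%) were among them, each lower in Santa Catalina on lab food: comp36761_c0, comp14079_c0 and comp36712_c0 (log2 fold changes -1.13, -1.23 and -1.41, adjusted p = 0.0355, 0.0379 and 0.0415, edgeR).

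Whether the populations differed in how far the members fell was tested as the difference in the change from lab food. The rule fixed the direction of that change in every strain. It did not fix the difference between populations, but it left out features that fell in a single population alone. Large differences in change were therefore less likely among the members, and nothing is read from their counts beside those of all features. No feature was called for both cacti together (0%), for prickly pear (0%) or for saguaro (0%) by edgeR. DESeq2 called 0 members, while over all features it called 0.164% for both cacti, 0 for prickly pear and 2.45% for saguaro. Without C-7, edgeR called 5.86% of all features for saguaro and 0 members. At an unadjusted p under 0.05 were 1, 1 and 2 members, while over all features the shares were 15.3%, 4.44% and 18.4%.

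For both cacti together 32 of the 48 members (66.7%) had a positive difference, that is a smaller fall in Santa Catalina, and 43.4% of all features had a positive difference. The median difference was 0.29 in log2 units, beside -0.09 over all features. The 48 include the 7 members found almost only on lab food, whose fall cannot be estimated from so few cactus counts. For comp19355_c0, with 0 counts on cactus, the difference was 0.29 (SE 1115) and only mirrored its -0.29 between populations on lab food. With library totals alone the medians were -0.03 and -0.46 and 24 members were positive, so the sign for the members depends on the scaling. The members' median lay 0.37 above that of all features with TMM and 0.43 above it with totals. Without C-7 the median was 0.10, with 25 members in that direction, and without T-28 it was 0.17.

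comp32096_c0 had the smallest p among members with a larger fall in the Sonoran strains. It had 80.3, 61.9 and 96.3 CPM on lab food in C-M, C-7 and C-9 and 139, 112 and 285 CPM in T-22, T-27 and T-28, without overlap. On the cacti it lay between 30.3 and 52 CPM in the island strains and between 30.4 and 67.5 CPM in the Sonoran strains, which overlapped. The difference in its change was 1.15 (SE 0.44, adjusted p = 0.296, edgeR; 0.156 to 0.8 in 11 other settings).

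comp37436_c0 had the smallest p among members with a larger fall in Santa Catalina, with 325, 132 and 349 CPM on lab food in C-M, C-7 and C-9 and 143, 65.9 and 122 CPM in T-22, T-27 and T-28, which overlapped. Its cactus libraries lay between 17 and 46.2 CPM in all strains. The difference in its change was -1.04 (SE 0.53, adjusted p = 0.362, edgeR; 0.178 to 0.803 in 11 other settings), and it was 4.95-fold lower on prickly pear and 4.94-fold lower on saguaro over both populations.

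Among the 41 members present on cactus, strains kept their order on different foods to different degrees, given here as a description. The correlation of L over the 6 strains had a median of 0.50 between lab food and saguaro, -0.02 between lab food and prickly pear and 0.29 between the cacti. Over all features these medians were 0.04, 0.15 and 0.03. It exceeded 0.8 between lab food and saguaro for 6 of the 41 members, 14.6% of them, against 4.32% of all features. For the other pairs the shares lay nearer to those of all features, 7.32% against 5.23% between lab food and prickly pear and 4.88% against 4.85% between the cacti. Each such value rests on 6 strains, and all members share the same libraries and scaling factors. The rule required lab food above both cacti within every strain, which can favour features whose levels move together over strains. Nothing is therefore read from the gap between the members and all features.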

How the data were processed

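RNA sequencing counts of 18 larval pools were analysed. The authors deposited whole-number counts per assembled gene. The design text names a Trinity assembly, with isoforms merged per gene, and edgeR is listed per the submitters' processing notes. The sources used here do not give the counting program or any filter. The members, lists and rule for naming features were chosen with earlier results of these data known.

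Factors for L were medians of ratios to the geometric mean over the 10912 features without a 0. Tests used R 4.3.3 and edgeR 4.0.16: filterByExpr, TMM factors and quasi-likelihood F tests on 6 group means over 18 libraries (12514 features) or on counts summed per strain (13129 features), with Benjamini-Hochberg adjustment over all features tested, called below 0.05. SE is the log2 fold change divided by the square root of F. The fits were tested on simulated counts drawn separately for each library, without a strain effect. That simulation therefore cannot cover any link between the foods of a strain. p-values measure the spread between strains and single pools, and on single foods and for differences in change they treat the 18 libraries as independent.

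Other settings were RLE factors, library totals alone, no filter, DESeq2 1.42.0, the libraries of a food alone, each strain left out and strain as a block. For the populations over the 3 foods, the mean of the differences on single foods was another. Strain pairs the foods, since each strain was reared on all 3: deviations from group means within a strain had a median correlation of 0.133, over 0.1 in 11 of 18 pairs. Features named are the 2 with the largest difference, the 2 with the highest CPM on lab food, the smallest p in each direction for the populations and for the difference in change, and those beside the limit. Others are said to be named after their values were seen. Floors and intervals cover counting error only.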

Additional observations from a re-analysis of the deposited data

Results flagged for a closer look

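In 6 of 40 sets of 6 values, mostly the libraries of a food, 1 value lay far from the other 5. Chance flags about 1 in 20 sets of normally distributed values. The CPM here were not logged and need not be so distributed, so no excess over chance is read. The features were chosen by their values, 2 of them after these were seen, so the count is a description. Without those 2 features it was 4 of 37, of which 3 were T-28. comp35025_c0 had 52.8 CPM in T-28 on saguaro, with the next library at 11.8. comp32096_c0 had 285 CPM in T-28 on lab food, with the next at 139. comp38891_c0 had 137 CPM in T-28 on prickly pear, with the next at 95.7. comp101259_c0 had 10.9 CPM in T-28 on lab food, with the next at 4.29, and 0.0684 CPM there on prickly pear, which is a single count where the other 5 libraries had 0. comp33383_c0 had 21.6 CPM in C-M on prickly pear, with the next at 9.65.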

How the results depend on the processing

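Recomputed under the other settings, the main results stayed within 1.5 times or within the spread between strains in 118 cases and moved further in 6. Most of the 118 were counts of members called that were 0 and stayed 0. The number of members called lower on saguaro, 0 to 34 in other settings, was not among these cases. With library totals alone the median log2 fold change of the members on prickly pear was -1.04 in place of -1.69, and on saguaro it was -1.23 in place of -1.26, so the order of the cacti turned. On prickly pear the median of all features went from 0.08 to 0.72 and 38 members were still called lower. Over all features the number called lower there went from 2369 to 946. DESeq2 called 2 members between the populations over the 3 foods in place of 0. Leaving out a strain gave 50 to 110 features that met the rule (73 without C-M, 110 without C-7, 85 without C-9) and 0 to 3 members called between the populations on lab food; the median was -1.97 to -1.61 on prickly pear and -1.50 to -1.12 on saguaro. In the rule, a constant of 2 or 32 in place of 8 gave 57 or 35 features, 41 and 30 of them members, and a gap of 0.5 gave 34. With strain as a replicate block 0 members were called for any difference in change. All 48 were still called lower on prickly pear, among 2372 of all features. On saguaro 10 of the 14 called lower were still called, with 4 others, among 23 of all features. The block was not used for the comparisons of populations, since each strain belongs to 1 population. Requiring 100 counts on lab food left 9 features found almost only there in place of 15, and 0 counts on cactus left 10, settings chosen after seeing the data. The causes were not tested. A strain had 1 pool per food, which limits what the tests of single members can show.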
